A study of Macaca mulatta with 20 samples.

Results

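The clustered histone genes were followed in blood of male rhesus macaques (Macaca mulatta, here NHPs) before and after X-irradiation of the thorax. Members were the genes whose array name begins with HIST1H, HIST2H, HIST3H or HIST4H and of which at least 1 probe was well above background on at least 5 of the 20 arrays, and each gene was read from its passing probe of highest mean signal. Of 69 such genes on the array (83 probes), 61 met this rule. Over the whole array, 19961 of 34127 probes did. The members comprised 5 genes of linker histone H1, 14 of H2A, 17 of H2B, 13 of H3 and 12 of H4.

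The study comprised 4 groups of 5 one-color (Cy3) human whole-genome arrays, hybridized with globin-depleted whole blood RNA. Pre-irradiation blood was drawn 3 days before exposure, and the other groups were drawn on day 2, day 5 and day 30 after 10 Gy to the whole thorax, with no other agent or allele in any group. The NHPs were of Chinese origin, their ages are not in the labels, and blood came from 8 of them, so that the 5 replicate numbers do not cover every animal. A single array held RNA pooled from a pair of animals, and the labels do not say which. There was no unirradiated group on later days, so time, repeated sampling and irradiation cannot be told apart. Each slide held 1 array of every group, always in the same place. Pre-irradiation was at position 1, day 2 at position 2, day 5 at position 3 and day 30 at position 4. Position on the slide therefore cannot be told apart from day either.

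Clustered histone genes supply the bulk of the histones that package DNA newly made in S phase. Their short intronless messages mostly end in a stem-loop bound by SLBP instead of a poly(A) tail, and histone messages are normally degraded once DNA synthesis stops. Several members, HIST1H2BD, HIST1H2AC, HIST1H1C, HIST2H2BE and HIST1H2BK among them, are also known to give polyadenylated messages in cells that no longer divide. Circulating blood holds few cycling cells, and platelets carry RNA inherited from megakaryocytes without a nucleus of their own.

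The genes lie in clusters, and the probes of neighbours can be close to identical, so the probe letters show what the values can and cannot separate. On the array's human build (hg19), 31 members had their probe on chromosome 6 from 25726563 to 26285556, 19 on chromosome 6 from 27100318 to 27861647, and 8 of the HIST2 and 3 of the HIST3 cluster on chromosome 1. Among 381 pairs of genes of the same histone, 29 pairs had probes that shared at least 40 of 60 bases in their best ungapped overlap, whereas no pair of different histones shared more than 33. The H2B probes below, all within coding sequence conserved between H2B genes, are shown with capitals at each base that differs from the HIST1H2BD probe within the overlap.
HIST1H2BD: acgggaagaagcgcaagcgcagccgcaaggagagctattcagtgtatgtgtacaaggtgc
HIST1H2BK: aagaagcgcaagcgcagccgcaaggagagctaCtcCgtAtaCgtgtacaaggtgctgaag
HIST1H2BC: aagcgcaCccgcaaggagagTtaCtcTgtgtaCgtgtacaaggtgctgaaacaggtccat
HIST1H2BG: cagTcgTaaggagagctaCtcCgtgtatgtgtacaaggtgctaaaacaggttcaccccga
HIST1H2BK differed from HIST1H2BD at 4 of 55 overlapping bases, HIST1H2BC at 5 of 46 and HIST1H2BG at 4 of 41. Their places are chr6:26158474-26158533 on the plus strand for HIST1H2BD, and on the minus strand chr6:27114437-27114496 for HIST1H2BK, chr6:26123983-26124042 for HIST1H2BC and chr6:26216717-26216776 for HIST1H2BG. A message of one of these genes could bind the probe of another, and the attribution to a single gene is uncertain. The H4 probes are shown in the same way against HIST2H4B, because they look as alike as the H2B probes but gave less similar day 2 values.
HIST2H4B: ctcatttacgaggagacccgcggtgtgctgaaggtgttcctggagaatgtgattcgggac
HIST1H4K: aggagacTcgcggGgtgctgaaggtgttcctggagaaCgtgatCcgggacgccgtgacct
HIST1H4F: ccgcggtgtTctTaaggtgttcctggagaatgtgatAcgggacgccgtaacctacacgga
HIST1H4H: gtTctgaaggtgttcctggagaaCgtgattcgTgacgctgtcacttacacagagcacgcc
HIST1H4I: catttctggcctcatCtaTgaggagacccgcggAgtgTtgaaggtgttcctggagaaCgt
Against HIST2H4B (chr1:149804396-149804455, plus strand), HIST1H4K differed at 4 of 50 overlapping bases, HIST1H4F at 3 of 43, HIST1H4H at 3 of 36 and HIST1H4I at 5 of 50. The HIST1H4F probe lies at chr6:26240818-26240877 on the plus strand and the HIST1H4K probe at chr6:27799089-27799148 on the minus strand.

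A few probes hold the stem-loop itself. The sole perfect stem of 6 bases around a loop of 4 in any member probe was GGCTCTTTTNAGAGCC, found in 4 of 61 member probes (6.56%). Searched on both strands of all 34127 probes, it was found in 6 (0.0176%). The motif was read from the member probes themselves, so its share there is a description. The windows show it in capitals with its flanks.
HIST1H2AI: gaaccaaaGGCTCTTTTCAGAGCCacct
HIST1H2BE: aacccaaaGGCTCTTTTCAGAGCCactc
HIST1H2BF: atcccaaaGGCTCTTTTAAGAGCCa
HIST2H3A: atccaaaaGGCTCTTTTCAGAGCCacc
The day 2 minus pre-irradiation change of these probes was -0.10 ± 0.22 for HIST1H2BE, -0.24 ± 0.22 for HIST1H2BF and 0.05 ± 0.21 for HIST2H3A (log2 ± SE, n = 5 pairs). HIST1H2AI was well above background on 2 of 5 arrays in each of these groups, and no change is given for it.

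Levels are given as log2 of the processed signal minus the 75th percentile of the array, so that 0 is the brightness of the 75th percentile spot, and changes are differences of these levels within a replicate number, tested in limma. To be called, a gene had to pass both limits of the study's methods, p under 0.005 and FDR (Benjamini-Hochberg) under 10%. The study applied its limits in another test, a BRB class comparison, and reported far more genes on each day than the probes called here. A member not called here is therefore not a finding of the study. Of the 61 members, 56 were well above background on all 20 arrays and none was saturated. HIST1H2AA, an H2A gene best known from testis, was the member nearest to the limit, with 7 arrays (1 before irradiation, 0 on day 2, 2 on day 5 and 4 on day 30), and HIST1H2APS1, at 3 arrays, was the nearest outside. HIST1H2AI (12 arrays), HIST3H2A (16), HIST1H2BF (18) and HIST3H2BB (19) were the other members missing arrays. HIST1H1T, HIST1H2BA, HIST1H2AG, HIST1H2AL, HIST1H4G, HIST2H2BA and HIST4H4 stayed on 0 or 1 array. By array, 50.9% to 67.3% of spots were well above background. The array held 10 B cell, 11 neutrophil, 24 platelet, 15 erythroid, 17 T and NK cell and 9 monocyte markers. Those with a probe passing the same background limit were kept. Of these, at least 7 of 8 B cell, 9 of 10 neutrophil and 18 of 22 platelet markers were well above background on every array. So were all 17 T and NK cell, 9 monocyte and 13 erythroid markers. The limit had selected the markers kept, so these counts are a description.

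The first comparison asked how blood at day 2 differed from blood before irradiation. On day 2 most H2B, H2A and H3 genes had higher values than before irradiation, with medians of 0.79, 0.45 and 0.62, whereas H4 genes other than HIST1H4F and HIST1H4H lay between -0.52 and 0.12 and H1 genes between -0.28 and 0.47. None of the 61 members passed both limits (12 of 19961 probes did, 0.0601%), and these differences are given as values. At an unadjusted p under 0.05, 30 of the 61 members were higher and 3 lower, where 8.47% of all probes tested were higher and 6.55% lower. At p under 0.005, 10 members were higher and 0 lower (1.9% and 0.656% of all probes). Higher values in every pair were seen for 30 members (6.17% of all probes). The median change over the members was 0.43, against -0.04 over all probes, and the medians of the 5 pairs were 0.71, 0.14, 0.53, 0.70 and 0.41 for replicates 1 to 5. Replicate 2 thus had the smallest difference.

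H2B, which pairs with H2A in the nucleosome, gave the largest differences. Of 17 H2B genes, 12 were higher at p under 0.05, 14 were higher in all 5 pairs, and the median change was 0.79. HIST1H2BJ stood at 1.08, 1.77, 0.96, 1.18 and 1.72 in replicates 1 to 5 before irradiation. On day 2 HIST1H2BJ stood at 2.95, 2.04, 2.44, 2.34 and 2.54. Every day 2 array lay above every pre-irradiation array, which was the case for HIST1H2BJ and HIST1H4F among the members and for 0.536% of all probes. The change of HIST1H2BJ was 1.12 ± 0.24 (log2 ± SE, n = 5 pairs, limma adjusted p = 0.166). HIST1H2BG was higher by 0.95 ± 0.24, HIST1H2BD by 0.92 ± 0.24, HIST1H2BC by 0.89 ± 0.23, HIST1H2BI by 0.89 ± 0.22 and HIST1H2BK by 0.84 ± 0.23, each in 5 of 5 pairs. The smallest of the other differences with p under 0.05 in this histone was that of HIST1H2BO, at 0.72 ± 0.21. In replicate 2 the differences were small. HIST1H2BG stood at 1.92 before irradiation and 2.03 on day 2, against 1.68 and 3.35 in replicate 1. HIST2H2BE (0.37 ± 0.18) and HIST1H2BN (0.32 ± 0.17) were also higher in 5 of 5 pairs, without reaching p under 0.05. HIST3H2BB, from the small HIST3 cluster, was at -0.55 ± 0.21 and higher in 1 of 5 pairs, but at 0.27 with normexp. Its level was low throughout, between -3.26 and -2.02 before irradiation and between -3.47 and -2.97 on day 2, and it was well above background on 4 of 5 arrays before irradiation.

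**Figure D1:**
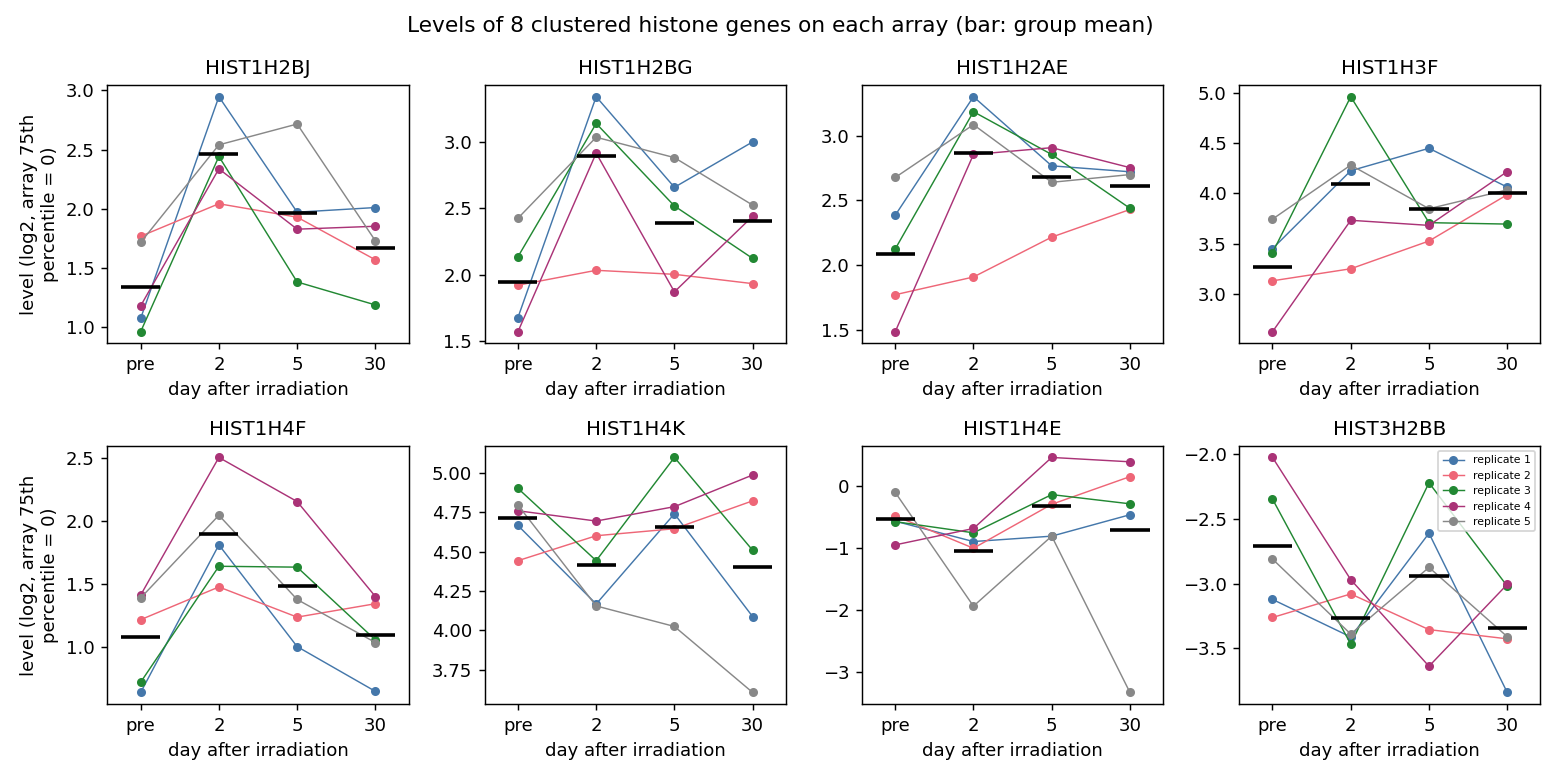
Level (log2, 75th percentile of the array at 0) of 8 members on each of the 20 arrays, by day, with arrays of one replicate number joined and the group mean as a bar; the vertical axes differ between genes. HIST1H2BJ and HIST1H4F on day 2 lie above all of their pre-irradiation values, HIST1H4K overlaps between groups, and HIST1H4E on day 30 ranges from -3.33 to 0.39.

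Among 14 H2A genes, 9 were higher and 1 lower at p under 0.05, with a median of 0.45. The 9 include HIST3H2A, which was well above background on 2 of 5 arrays before irradiation and on 5 of 5 on day 2. It passed the filter mainly through the later groups, so it lends the count no weight and no change is given for it. HIST1H2AE stood at 2.38, 1.77, 2.12, 1.48 and 2.68 before irradiation and at 3.30, 1.91, 3.19, 2.85 and 3.09 on day 2, higher in 5 of 5 pairs with overlapping groups. Its change was 0.78 ± 0.21. HIST2H2AA4 was higher by 0.85 ± 0.24, HIST1H2AC by 0.84 ± 0.21 and HIST1H2AD by 0.65 ± 0.18. HIST2H2AC was lower, at -0.70 ± 0.29, but in 1 of 5 pairs it was higher and the pair differences ran from -1.92 to 0.31. HIST1H2AA was not well above background on any day 2 array, so no fold is given for it.

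Of 13 H3 genes, 8 were higher and 0 lower at p under 0.05, all 8 in 5 of 5 pairs. HIST1H3F stood at 3.45, 3.13, 3.41, 2.62 and 3.74 before irradiation. On day 2 HIST1H3F stood at 4.22, 3.25, 4.96, 3.73 and 4.28. The 2 groups overlapped, since the day 2 array of replicate 2 lay below 3 of the pre-irradiation arrays. HIST1H3C was higher by 0.84 ± 0.22, HIST1H3F by 0.82 ± 0.22, HIST2H3D by 0.78 ± 0.23, HIST1H3E by 0.76 ± 0.21, HIST1H3A by 0.67 ± 0.18 and HIST1H3H by 0.60 ± 0.17. HIST1H3B (0.00 ± 0.21), HIST1H3I (0.07 ± 0.19) and HIST2H3A (0.05 ± 0.21) were near 0. HIST1H3D was higher on day 2 in replicates 1 to 4, but in replicate 5 it stood at 7.42 before irradiation and 5.12 on day 2.

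The H4 genes, which pair with H3 in the nucleosome, gave other values than H2A, H2B and H3. Of 12, 1 was higher and 1 lower at p under 0.05, and the median change was -0.25. HIST1H4F stood at 0.64, 1.22, 0.72, 1.41 and 1.39 before irradiation and at 1.81, 1.48, 1.64, 2.50 and 2.05 on day 2. The groups did not overlap. Its change was 0.82 ± 0.18 (limma adjusted p = 0.166). HIST1H4K, whose probe shares 46 bases with that of HIST1H4F, stood at 4.67, 4.44, 4.90, 4.76 and 4.79 before irradiation and at 4.17, 4.60, 4.44, 4.69 and 4.15 on day 2. Its change was -0.30 ± 0.17, and it was higher in 1 of 5 pairs. HIST1H4H was at 0.41 ± 0.18, HIST2H4B at 0.03 ± 0.16 and HIST1H4I at -0.05 ± 0.16. HIST1H4B was the lower gene, at -0.46 ± 0.18, and HIST1H4E was at -0.52 ± 0.29. The H2B median exceeded the H4 median by 1.04, and the pairs' values were 1.75, -0.04, 0.92, 0.88 and 0.90 for replicates 1 to 5, so that it exceeded 0 in 4 of 5 pairs.

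The 5 H1 genes, whose product binds the linker DNA between nucleosomes, had no p under 0.05 and a median of 0.06. HIST1H1C was at 0.47 ± 0.22, higher in 4 of 5 pairs, and HIST1H1A at -0.28 ± 0.23.

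**Figure D2:**
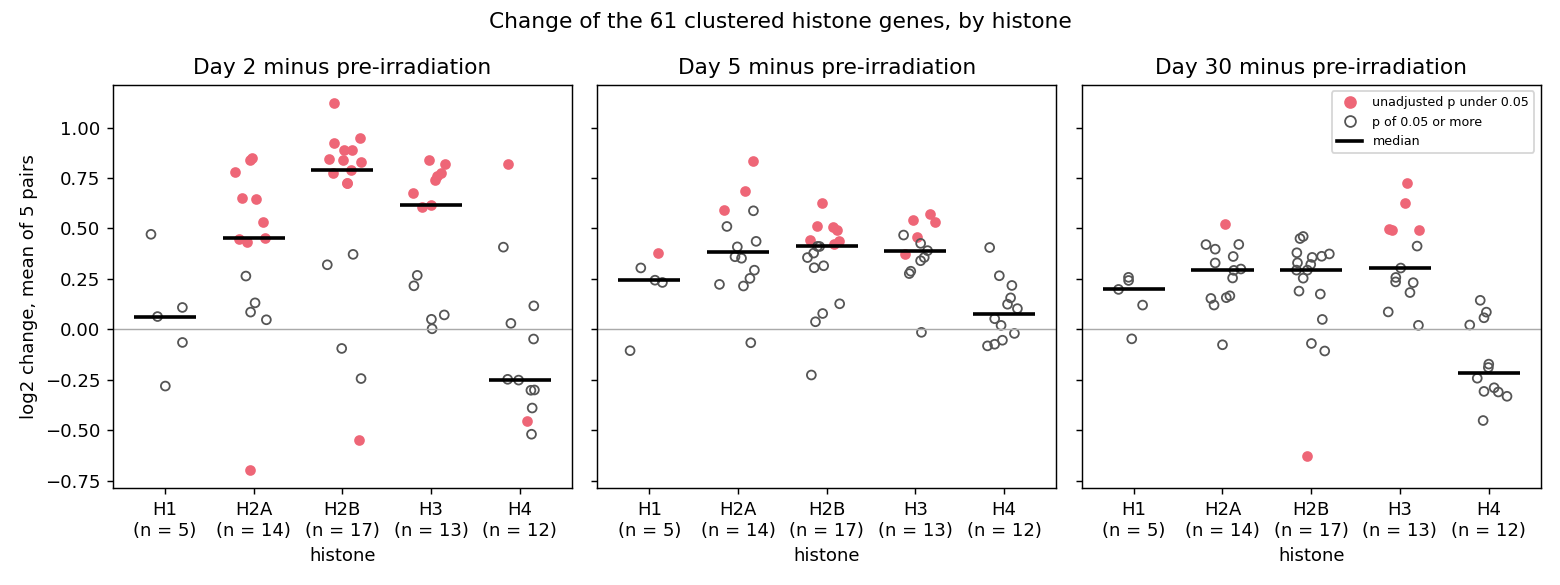
Log2 change against pre-irradiation (mean of 5 pairs) of each of the 61 members on days 2, 5 and 30, by histone; filled points had an unadjusted p under 0.05 and bars are medians. On day 2 the medians were 0.79 for H2B, 0.62 for H3, 0.45 for H2A, 0.06 for H1 and -0.25 for H4.

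These day 2 values depended on how the spot signals were processed. With normexp background correction (offset 50) of the raw spot signals in place of the deposited processed signal, 3 members instead of 30 were higher at p under 0.05, and the member median was 0.15 with the all-probe median at 0.17. The members as a whole then did not exceed other probes, while H2B was still at 0.36 and H4 at -0.52, a gap of 0.88. Raw spot signals also lack the spatial and multiplicative detrending of the processed signal, and which step made the difference was not tested. The gap between H2B and H4 at day 2 lay between 0.69 and 1.31 under all alternatives run. Without replicate 2, 19 members passed both limits, as did 588 of all probes tested. With the slide as block in place of the replicate number, 24 members were higher at p under 0.05.

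**Figure D3:**
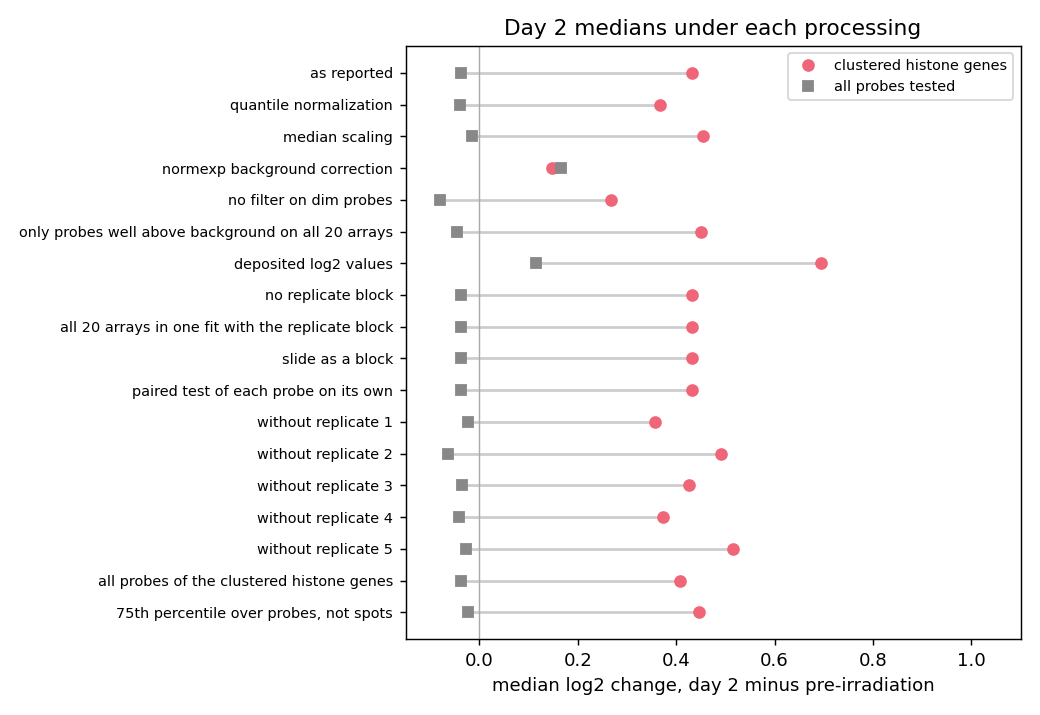
Median day 2 minus pre-irradiation log2 change of the clustered histone genes (circles) and of all probes tested (squares) under each way of processing. Circles lie to the right of squares throughout except under normexp background correction, where the medians are 0.15 and 0.17.

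Cell markers also differed between these days. Of 22 platelet markers tested, 21 were higher at p under 0.05 on day 2, with a median of 1.42, and their summed signal ranged from 43.0 to 162.2 times the 75th percentile before irradiation and from 159.1 to 600.9 on day 2. At least 18 of the 22 were well above background on every array. The platelet median was 1.98, 0.32, 1.79, 1.35 and 1.45 in replicates 1 to 5, lowest in replicate 2, as was the H2B median (1.34, 0.11, 0.66, 1.05 and 0.61). Of 17 T and NK cell genes 13 were lower at p under 0.05 (median -0.69), of 8 B cell genes 5 were lower (median -0.50), and 6 of 10 neutrophil and 6 of 9 monocyte genes were higher. Replicate 2 also had the smallest median change, in either direction, of the T and NK cell (-0.18), neutrophil (-0.08) and monocyte (0.21) genes. This did not hold for the B cell genes, at -0.48 in replicate 2 and -0.03 in replicate 5, or for the erythroid genes, at 1.02 in replicate 2. No erythroid gene of 13 had p under 0.05, and their median differed between replicates, from -1.08 to 1.02. The part of these shifts in the histone values was not tested, and in whole blood fewer cells of a type and less RNA per cell cannot be told apart.

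**Figure D4:**
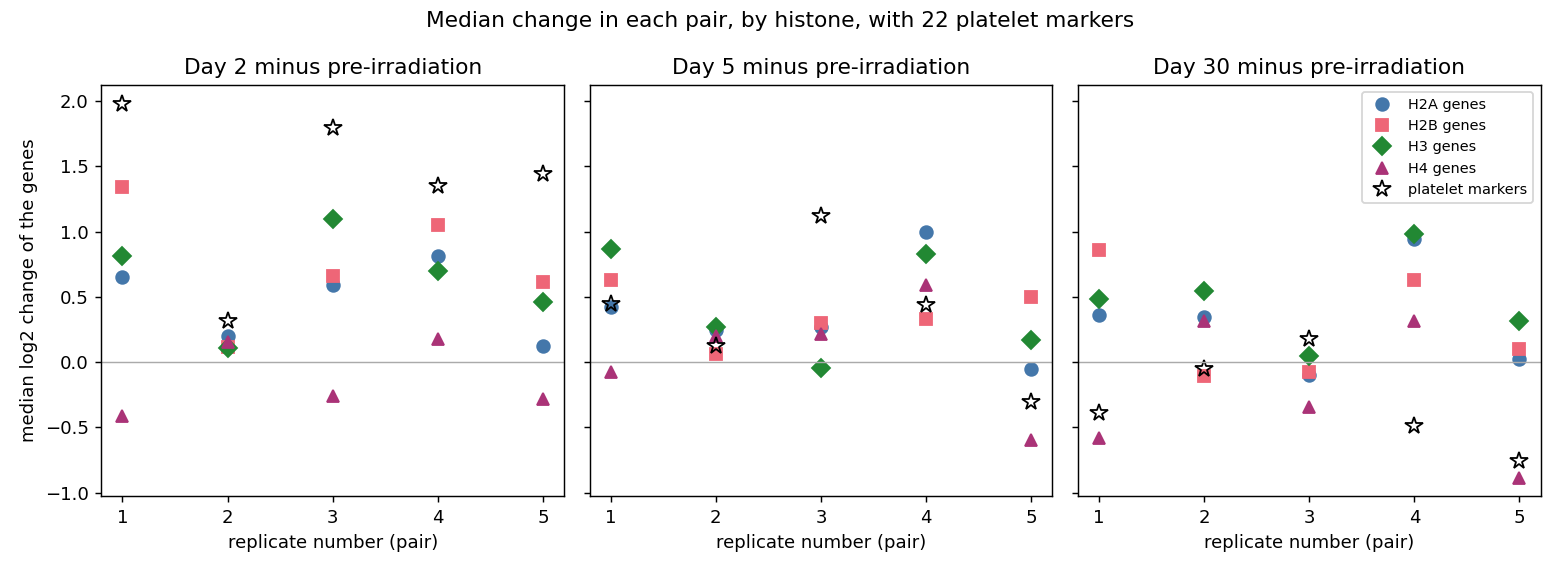
Median log2 change of the H2A, H2B, H3 and H4 genes and of 22 platelet markers in each replicate number, against pre-irradiation, on days 2, 5 and 30. On day 2 the platelet median is the highest in every pair, from 0.32 to 1.98; on day 30 it is below 0 in 4 of 5 pairs while the H3 median is above 0 in 5 of 5.

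On day 5 most members had values above pre-irradiation, with a median of 0.35 against 0.43 on day 2. With normexp this order turned, at 0.30 on day 5 against 0.15 on day 2. None was called (0 of all probes were, 0%). At p under 0.05, 16 were higher and 0 lower (7.35% and 3.82% of all probes), and 18 were higher in every pair (7.24%). The median over all probes was 0.03. By pair the member medians were 0.46, 0.18, 0.24, 0.70 and -0.02. H2B contributed 7 of the 16, H3 5, H2A 3, H1 1 and H4 0. The 3 H2A genes include HIST3H2A, well above background on 2 of 5 arrays before irradiation and on 5 of 5 on day 5, to which no weight is given. HIST1H2BJ was higher by 0.62 ± 0.17 (limma adjusted p = 0.326), HIST1H2BC by 0.51 ± 0.17 and HIST1H2BB by 0.51 ± 0.16, each in 5 of 5 pairs. HIST1H2BB stood at 1.41, 1.40, 1.53, 0.81 and 1.56 before irradiation and at 1.90, 1.58, 1.85, 1.66 and 2.25 on day 5, without overlap, which also held for HIST2H3D (0.53 ± 0.17) and for 0.326% of all probes. HIST1H1C was higher by 0.38 ± 0.15 in 5 of 5 pairs. The count of 16 was 1 with median scaling of the arrays, 27 with normexp, 10 without the replicate block, 5 with the slide as block, 7 without replicate 1 and 9 without replicate 4. The platelet median was 0.39, with 4 of 22 genes higher at p under 0.05.

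On day 30 members were higher at p under 0.05 about as often as all probes. None of the members was called (0 of all probes, 0%), and 6 were higher and 1 lower at p under 0.05 (7.43% and 10.1% of all probes), a share of higher members close to that of all probes. The 6 were HIST1H2AE and 5 H3 genes, and nothing is read from which histones they belong to. HIST1H3F stood at 4.06, 3.99, 3.69, 4.22 and 4.03 on day 30. It was higher in 5 of 5 pairs, by 0.73 ± 0.23 (limma adjusted p = 0.183). HIST1H3E was higher by 0.63 ± 0.20, HIST1H3A by 0.50 ± 0.21, HIST2H3D by 0.49 ± 0.19, HIST1H3H by 0.49 ± 0.21 and HIST1H2AE by 0.52 ± 0.21. The probes of HIST1H3E, HIST1H3F and HIST1H3H share 46 to 51 bases, so these 3 values need not be separate messages. HIST3H2BB was lower in 5 of 5 pairs, at -0.63 ± 0.18, but at 0.09 with normexp. The count of 6 was 2 with quantile normalization or with the slide as block, 0 of 30 members in the deposited log2 values, 3 when each probe had its own paired test, 3 without replicate 2 and 1 without replicate 4. No H2B gene was higher at p under 0.05, their median was 0.29, and the platelet median was -0.10.

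The comparison of day 30 with day 2 gave most of its differences in H2B. From day 2 to day 30, 17 members were lower and 0 higher at p under 0.05 (7.44% and 5.4% of all probes), 13 of them among the 17 H2B genes, and 16 members, 12 of them H2B genes, were lower in every pair (6.7%). At p under 0.005, 2 members, HIST1H2BJ and HIST1H4F, were lower (0.932% of all probes). No member was among the 10 probes called (0.0501% of all tested). HIST1H2BJ stood at 2.01, 1.57, 1.19, 1.85 and 1.73 on day 30, every array below every day 2 array. Its difference was -0.79 ± 0.16 (limma adjusted p = 0.293). HIST1H4F did the same, at 0.65, 1.34, 1.06, 1.40 and 1.04 on day 30 and a difference of -0.80 ± 0.19; non-overlap in this direction was seen for 0.892% of all probes. HIST1H2BM differed by -0.59 ± 0.16, HIST1H2BD by -0.54 ± 0.14, HIST2H2BF by -0.54 ± 0.16, HIST1H2BL by -0.53 ± 0.14 and HIST1H2BI by -0.53 ± 0.15. The H2B median by pair was -0.47, -0.21, -0.68, -0.42 and -0.46. H3 genes were mixed: HIST1H3C differed by -0.60 ± 0.23, whereas HIST1H3F differed by -0.09 ± 0.29. The count of 17 was 2 with normexp, 3 with the slide as block and 11 without the replicate block. Platelet markers were lower over the same span in 19 of 22 genes at p under 0.05, with a median of -1.59, and the part of this in the H2B values was not tested. T and NK cell genes included 3 called higher over this span, GZMK, KLRB1 and KLRD1.

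From day 2 to day 5, 6 members were lower and 1 higher at p under 0.05 (1.39% and 2.17% of all probes), with a median of -0.10 that turned to 0.25 with normexp and to 0.039 with no filter on dim probes. The lower genes were HIST1H2AC and 5 H2B genes (HIST1H2BG, HIST1H2BI, HIST1H2BK, HIST1H2BM and HIST2H2BF), of which HIST2H2BF (0.042) and HIST1H2BK (0.036) changed sign with normexp. HIST1H4E was the higher gene, by 0.74 ± 0.20 in 5 of 5 pairs. From day 5 to day 30, 1 member, HIST1H4H, was lower and 0 were higher at p under 0.05 (6.64% and 1.84% of all probes). No member was called in either comparison, nor was any probe.

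Pairs with similar probes had more similar day 2 changes than other pairs in H2B and H2A, and less similar ones in H3 and H4. For the 7 pairs of H2B genes with at least 40 shared bases, the day 2 changes differed by a median of 0.05 (range 0.03 to 0.11), against 0.40 for the 129 other H2B pairs. For the 7 such H4 pairs the median difference was 0.51 (0.08 to 1.12), against 0.29 for 59 other pairs, and for the 10 H3 pairs it was 0.51, against 0.30. The 7 H2B pairs came from 8 genes. No pair of these 8, whatever its shared bases, differed by more than the 0.16 of HIST1H2BG and HIST1H2BH, with 21 shared bases. Probe similarity in H2B therefore cannot be told apart from which genes were in each set. The 10 H3 pairs included HIST1H3A and HIST1H3D (0.46), and HIST1H3D had a pre-irradiation value of 7.42 in replicate 5, far above its other arrays. HIST1H3D also enters H3 pairs with fewer shared bases. Pairs share genes, and no test was made.

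**Figure D5:**
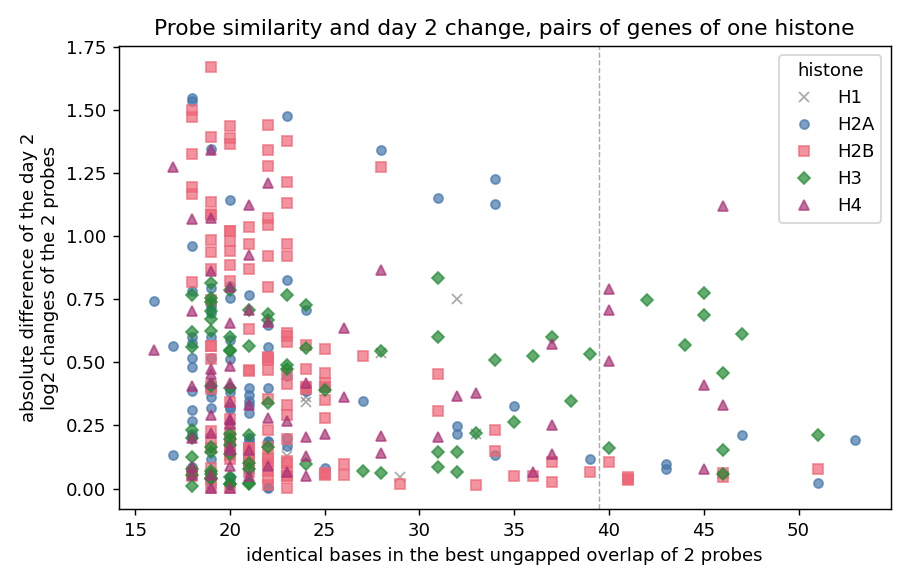
For each of the 381 pairs of genes of one histone, the absolute difference of their day 2 log2 changes against the number of identical bases in the best ungapped overlap of their probes; the dashed line separates pairs with 40 or more. To the right of it the H2B squares lie between 0.03 and 0.11, whereas H4 triangles reach 1.12.

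Among the members, 7 genes had more than 1 passing probe, which shows how far a gene's value rests on its probe. The brightest HIST1H2AC probe, used above, lies at chr6:26138822-26138881, and the other passing probes start up to 14419 bases before it. Their day 2 changes were 0.84 ± 0.21 for the bright probe, 0.92 ± 0.19 for the probe at chr6:26124461-26124520 (limma adjusted p = 0.154, higher in 5 of 5 pairs) and -0.51 ± 0.52 for the one at chr6:26124403-26124462. The last 2 overlap by 2 bases and gave opposite signs. HIST1H2BK, with probes 8246 bases apart, was at 0.84 ± 0.23 and 0.74 ± 0.21. The HIST2H2BF probes, which start 386438 bases apart, were at 0.73 ± 0.19 and 0.72 ± 0.18. At that distance they need not read the same message. HIST1H4K was at -0.30 ± 0.17 with the bright probe and 0.19 ± 0.15 with the other.

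Genes that serve the histones were read on day 2 from lists of their own. Replacement histones are not made in S phase alone. Of 10 such genes tested, 2 were higher and 0 lower on day 2 at p under 0.05, with a median of 0.13. The 2 were H3F3C (0.90 ± 0.25), whose sequence is close to that of other H3 genes, and H2AFJ (0.38 ± 0.15). Of 17 genes of histone message transcription and processing, 0 were higher and 1 lower, and the median was -0.10. That gene was ZNF473, a factor of histone message processing, at -0.39 ± 0.16. Of 13 histone chaperones, which carry histones to DNA, none had p under 0.05 (median -0.10). Of 24 S phase genes, 2 were higher and 2 lower (median -0.13). For the processing and S phase lists these counts are near the shares of all probes, 8.47% higher and 6.55% lower, and nothing is read from the single genes named. RRM2, a subunit of the enzyme that makes deoxyribonucleotides, was higher by 1.05 ± 0.34, and the replicative helicase subunits MCM2 (-0.66 ± 0.22) and MCM5 (-0.37 ± 0.15) were lower. Of 15 genes of the p53 response to radiation, 6 were higher and 0 lower (median 0.38), led by BBC3 (0.98 ± 0.21), MDM2 (0.61 ± 0.15) and DDB2 (0.52 ± 0.15). None of the genes of these 5 lists was called on day 2, 5 or 30.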

How the data were processed

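Blood RNA of 20 samples, 5 per group, was measured on Agilent Whole Human Genome 4x44K v2 arrays. Scanner files as deposited name Feature Extraction 12.0.2.2 in their headers, whereas the submitters' processing notes give 10.7. Per the file headers, the processed signal is an intensity with spatial and multiplicative detrending on, without normalization across arrays. The authors also deposited a table of log2 values for 5884 of these probes, 30 of them members. At least 96.9% of its values on each array equal log2 processed signal plus 1 constant within 0.001, so its scale is known and the origin of the constant is not. Its column medians ran from 7.55 to 7.83.

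From the processed signal, control spots and spots marked as non-uniform or population outliers were left out, log2 values were averaged per probe, and the 75th percentile of all non-control spots was subtracted. Tested were the probes that passed the background limit on 5 or more arrays and had values in at least 4 pairs, in limma 3.58.1 (R 4.3.3), on the 10 arrays of each of 6 comparisons, with the replicate number as block. The methods pair comparisons by animal. Correlations of the deviations of same-numbered arrays exceeded 0.1 in 5 of 5 pairs for days 2 and 5, and in 3 of 5 for day 30, against pre-irradiation. The same-numbered array was the best match in 4 of 5 pairs for day 2, 5 of 5 for day 5 and 2 of 5 for day 30. For day 30 against day 2 it was the best match in 4 of 5. In replicate 3 of that comparison the correlation was -0.16, against 0.425 with another number. The pairing by animal is thus less clear for day 30. The p-values rest on the spread of the differences within replicate numbers, which limma moderates with that of all probes. On data simulated for day 2 minus pre-irradiation, with 19941 probes, 0 of 50 probes changed by 0.5, 20 of 50 changed by 1 and 44 of 50 changed by 2 (log2) were called, beside 14 false calls. The simulated noise was drawn independently for each probe and array, and few probes were changed. These counts need not hold for the real arrays, where probes of similar genes can vary together. The number of arrays limits the precision.

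Genes given with full values were the 25 members of smallest p among 38 with p under 0.05 in any comparison, others being added for probe or histone comparisons after their values were seen. The members and gene lists were chosen with earlier results of these data known. Gene names are those of the array. A RefSeq table of a rhesus assembly held 19 of the 61 names, and no coordinate was taken from it. The probe letters are human, and mismatch to rhesus messages was not examined. The labelling primer is not given in the sources used here.

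The alternatives were quantile normalization, median scaling, normexp, other filters on dim probes, the log2 table as deposited, a fit of all 20 arrays together, a fit with no replicate block, the slide as block (5 slides, each with 1 array of every group), a paired test of each probe, all member probes, and each replicate left out. Neither block separates a group from its position on the slide, which was the same on every slide. A percentile over probes, and the counts at p under 0.05, were added after the data were seen.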

Additional observations from a re-analysis of the deposited data

Results flagged for a closer look

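Of 104 sets of 5 levels examined (the 25 members given in full and the member median, in 4 groups), 5 had a lowest array set apart from the other 4 by more than Dixon's critical value for 5 samples, which chance exceeds in about 1 of 20 groups. HIST1H2BB before irradiation stood at 0.81 in replicate 4, with the others between 1.40 and 1.56. HIST1H2BC on day 2 stood at 1.33 in replicate 2, with the others between 2.32 and 2.56, and the member median on day 2 stood at 2.62 in replicate 2, with the others between 3.26 and 3.44. HIST1H4E stood at -1.94 on day 2 and at -3.33 on day 30 in replicate 5, where the others lay between -1.01 and -0.69 and between -0.47 and 0.39. The other members were not examined in this way. Among them, HIST1H3D before irradiation stood at 7.42 in replicate 5, with the others between 3.78 and 4.48.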

How the results depend on the processing

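The settings were compared on the counts of members, their medians and 65 changes of named members. No member was called as reported at day 2. Members called were 2 when probes had to be well above background on all 20 arrays (190 of all probes called), 6 of 30 with the deposited log2 values (327), 15 with all 20 arrays in one fit (343), and 0 to 19 with a replicate left out, the 19 without replicate 2 (588). From day 2 to day 30, 1 was called with all 20 arrays in one fit (164). None was called in the remaining comparisons and settings. The cause was not tested. The day 2 median of 0.43 was 0.15 with normexp and 0.69 with the deposited log2 values (all-probe median 0.12 there), and 0.36 to 0.52 with a replicate left out. Members higher at p under 0.05 on day 2 numbered 3 with normexp, 16 of 30 with the deposited values and 24 to 31 with a replicate left out. For day 5 they numbered 1 with median scaling, 27 with normexp, 5 of 30 with the deposited values, 10 with no replicate block, 5 with the slide as block and 7 to 20 with a replicate left out. For day 30 they numbered 2 with quantile normalization, 0 of 30 with the deposited values, 2 with the slide as block, 3 in the paired test of each probe and 1 to 8 with a replicate left out. Members lower from day 2 to day 30 numbered 2 with normexp, 6 of 30 with the deposited values, 11 with no replicate block, 3 with the slide as block and 12 to 18 with a replicate left out. The median from day 2 to day 5, -0.10, was -0.25 with median scaling, 0.25 with normexp, 0.039 with no filter and -0.26 with the deposited values; from day 5 to day 30, -0.10, it was 0.087 with median scaling, and from day 2 to day 30, -0.20, it was 0.06 with normexp. Median scaling moved the all-probe median of day 5 minus pre-irradiation from 0.03 to -0.09, and that of day 30 minus day 5 from -0.05 to 0.13. Normexp moved that of day 2 minus pre-irradiation from -0.04 to 0.17. Of the changes of named members, 4 changed sign, all with normexp: HIST3H2BB on day 2 (0.27) and day 30 (0.094), and HIST2H2BF (0.042) and HIST1H2BK (0.036) from day 2 to day 5. Without the replicate block the members higher on day 2 numbered 27, and no member was called with or without the pairing. Signal over local background, with a median ratio from 1.68 to 2.46 by array, limits the dim members.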
